A study of Saccharomyces cerevisiae with 55 samples.

Results

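The arg82 mutant in log growth was measured on 2 of the 55 arrays of the series, those titled arg82 with no stress. Each array set RNA of an arg82 null mutant of Saccharomyces cerevisiae (strain ACY207) against RNA of the wild type (strain ACY044), both taken from mid-log cultures in YEPD, a rich medium. All strains were W303 yeast, and the mutants had been made by homologous recombination in cells of mating type a. The mutant was labelled with Cy5 and the wild type with Cy3 on both arrays, with no dye swap. A value is the deposited log2 ratio of mutant over wild type, so that 1 is a 2-fold higher and -1 a 2-fold lower signal in the mutant. Values are given for replicate 1 and then replicate 2.

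The comparison groups were arg82 (ACY207) over wild type with both strains in 0.375 M KCl for 20 min (3 arrays), and 3 other mutants over wild type in log growth in YEPD. These were the kcs1/vip1 mutant (ACY236, 3 arrays), the ipk1 mutant (ACY237, 2 arrays) and the vip1 mutant (ACY211, 2 arrays). The labels do not say whether a strain was 1 clone, whether arrays came from separate cultures, or whether wild type RNA was shared between arrays.

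ARG82 encodes inositol polyphosphate multikinase, which adds phosphates to soluble inositol phosphates. Ipk1 acts after it to make inositol hexakisphosphate, and Kcs1 and Vip1 attach the extra phosphates of the inositol pyrophosphates. The Arg82 protein also has a part in arginine control: with Arg80, Arg81 and Mcm1 it forms the ArgR-Mcm1 complex, which represses arginine synthesis genes and activates arginine breakdown genes when arginine is present. Mcm1 is a MADS-box factor that also acts at a-cell specific genes and at cell cycle genes.

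ARG82 itself had a log2 ratio of -4.17 on replicate 2 and no value on replicate 1, so it was not tested. On the KCl arrays it had 1 value, -5.78. Both values lie far below 0. The table gives ratios and no levels, so the mating type could not be checked from marker levels.

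The 2 arrays held 5693 and 5647 values, and 5190 genes or probes had a value on both. Over these the arrays correlated with r = 0.93 (Spearman 0.92), rank 3 of the 34 replicate pairs of the series, whose median was 0.745, and the median SD of a gene was 0.099. Both arrays lay on 2 slides, A and B, which also held arg82 in KCl replicates 1 and 2 (r = 0.94 with each other), while KCl replicate 3, on another slide, correlated with them at 0.76 and 0.76. P-values therefore measure only the spread between arrays, which may be technical. The number of arrays limits the precision.

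In limma's moderated test, with one spread per gene shared by 54 arrays and p-values adjusted by Benjamini-Hochberg, 893 of 5190 genes or probes differed from wild type at an adjusted p under 0.05 (17.2%). Of these 396 were higher (7.63%) and 497 were lower (9.58%), and all 893 had the same direction on both arrays. A gene symbol was known for 617 of them. Counts of list members are to be read against the 7.63% and 9.58%, and a share near these says nothing about the list. At least 2-fold changes numbered 226 higher (4.35%) and 216 lower (4.16%). When arrays of the same group on slides A and B were averaged to 1 sample, an alternative added after the data were seen, 53 genes passed, 25 higher and 28 lower. In that averaged fit 7 of the 15 highest genes named passed, and 9 of the 15 lowest. With replicate 1 left out 59 genes passed, and with replicate 2 left out 153, the remaining array being taken to vary like the other groups.

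**Figure D1:**
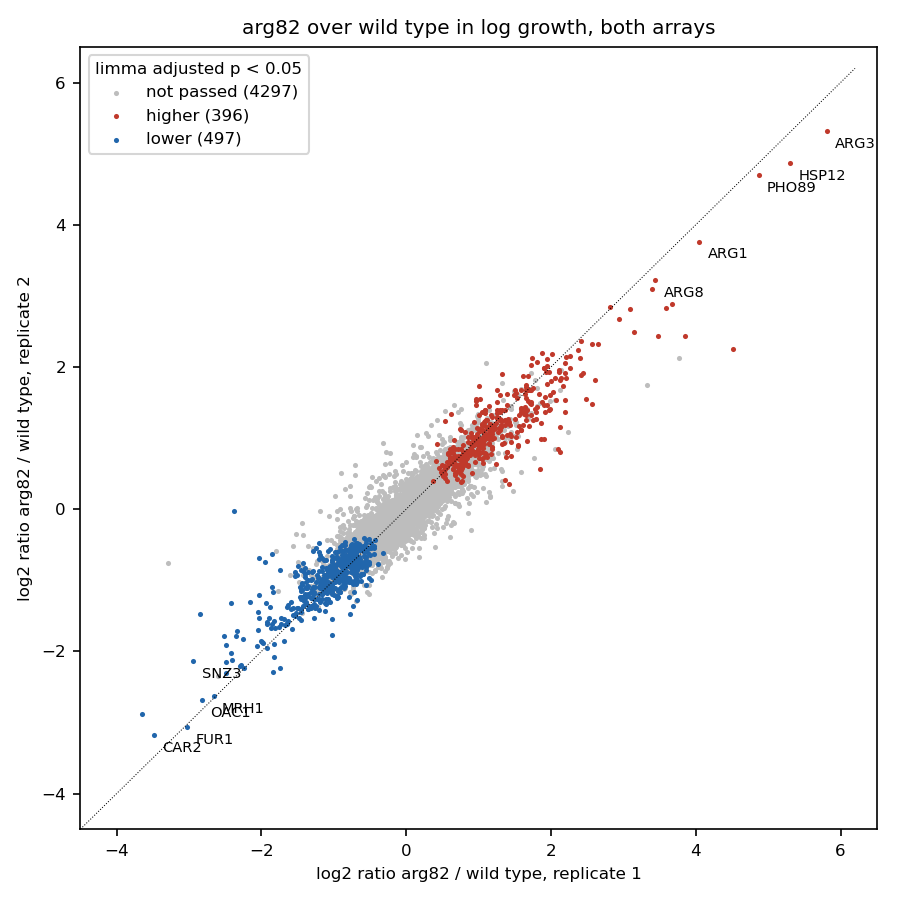
Log2 ratio of arg82 over wild type in log growth on replicate 1 (x axis) and replicate 2 (y axis), with each of 5190 genes or probes a point and the dotted line marking equal values. Red points are the 396 genes that were higher and blue points the 497 that were lower at an adjusted p under 0.05; ARG3 lies farthest up at 5.81 and 5.32.

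The genes of the ArgR-Mcm1 complex and of inositol phosphate metabolism other than ARG82 did not pass the test. ARG80, which encodes a MADS-box partner of Mcm1, had ratios of -0.71 and -0.34. ARG81, which encodes the zinc cluster protein of the complex, had 0.17 and 0.30, and MCM1 had 0.34 and 0.21. None of these 3 passed (limma, adjusted p = 0.201, 0.234 and 0.626). None of 7 inositol phosphate enzyme genes tested passed either, and their median was 0.26 against -0.045 over all genes tested. PLC1, encoding phospholipase C, had 0.50 and 0.40. IPK1 had -0.04 and 0.07, KCS1 0.47 and 0.30, and VIP1 0.36 and 0.16. The phosphatase genes SIW14 and DDP1 had means of 0.43 and -0.21, and INM1, for an inositol monophosphatase, had 0.17.

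Arginine synthesis genes moved in both directions. ARG3, for ornithine carbamoyltransferase, had the highest ratio of any gene with a symbol that passed, 5.81 and 5.32 (mean 5.57 ± 0.35 SD, n = 2 arrays; limma, adjusted p = 2.18e-10). ARG1, for argininosuccinate synthase, had 4.05 and 3.76 (limma, adjusted p = 2.23e-06). ARG8, for acetylornithine aminotransferase, had 3.44 and 3.22 (limma, adjusted p = 2.64e-10). These genes were far above wild type on both arrays, and each kept its call when the slides were averaged.

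Another set of arginine synthesis genes was lower. ORT1, for the mitochondrial ornithine transporter, had -1.16 and -1.07. ARG4, for argininosuccinate lyase, had -0.93 and -1.14, and ARG7, for mitochondrial ornithine acetyltransferase, had -0.73 and -0.85. All 3 passed (limma, adjusted p = 0.00296, 0.00444 and 0.0104), and none of the 3 did when the slides were averaged (limma, adjusted p = 0.156, 0.193 and 0.267). ARG2, for acetylglutamate synthase, had -0.39 and -0.29 and CPA1, for the small subunit of carbamoyl phosphate synthetase, had 0.41 and 0.47, and neither passed. Of 8 members tested, 3 were higher and 3 lower, with a median of 0.05; ARG5,6 was not analysed here.

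Arginine breakdown genes were lower. CAR2, for ornithine transaminase, had the lowest ratio among genes with a symbol that passed, -3.49 and -3.18 (mean -3.34 ± 0.22 SD, n = 2 arrays; limma, adjusted p = 1.5e-06). CAR1, for arginase, had -1.59 and -1.30 (limma, adjusted p = 0.00711). PUT2, which acts after Car2 on the way to glutamate, had -1.44 and -1.04 (limma, adjusted p = 0.0014). PUT1, for proline oxidase, had -0.18 and -0.12 and did not pass. Thus 3 of 4 were lower and none higher, with a median of -1.34; when the slides were averaged CAR2 passed and CAR1 and PUT2 did not (limma, adjusted p = 0.234 and 0.122).

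Of 3 amino acid permease genes that can carry arginine, GAP1, for the general permease, was lower at -0.96 and -1.22 (limma, adjusted p = 0.0414). CAN1, for the arginine permease, had -0.36 and -0.09, and ALP1 had 0.00 and -0.11, and neither passed. Among 25 nitrogen catabolite genes tested 1 was higher and 4 were lower, beside the 7.63% and 9.58% of all genes, with a median of -0.43. Counts this small were not read as a result about the list. GDH1, for glutamate dehydrogenase, had -2.05 and -1.45, PUT4, a proline permease gene, had -1.30 and -1.24, and DAL2, of allantoin use, averaged -0.89. UGA1, for GABA transaminase, was higher at 1.08 and 1.08.

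**Figure D2:**
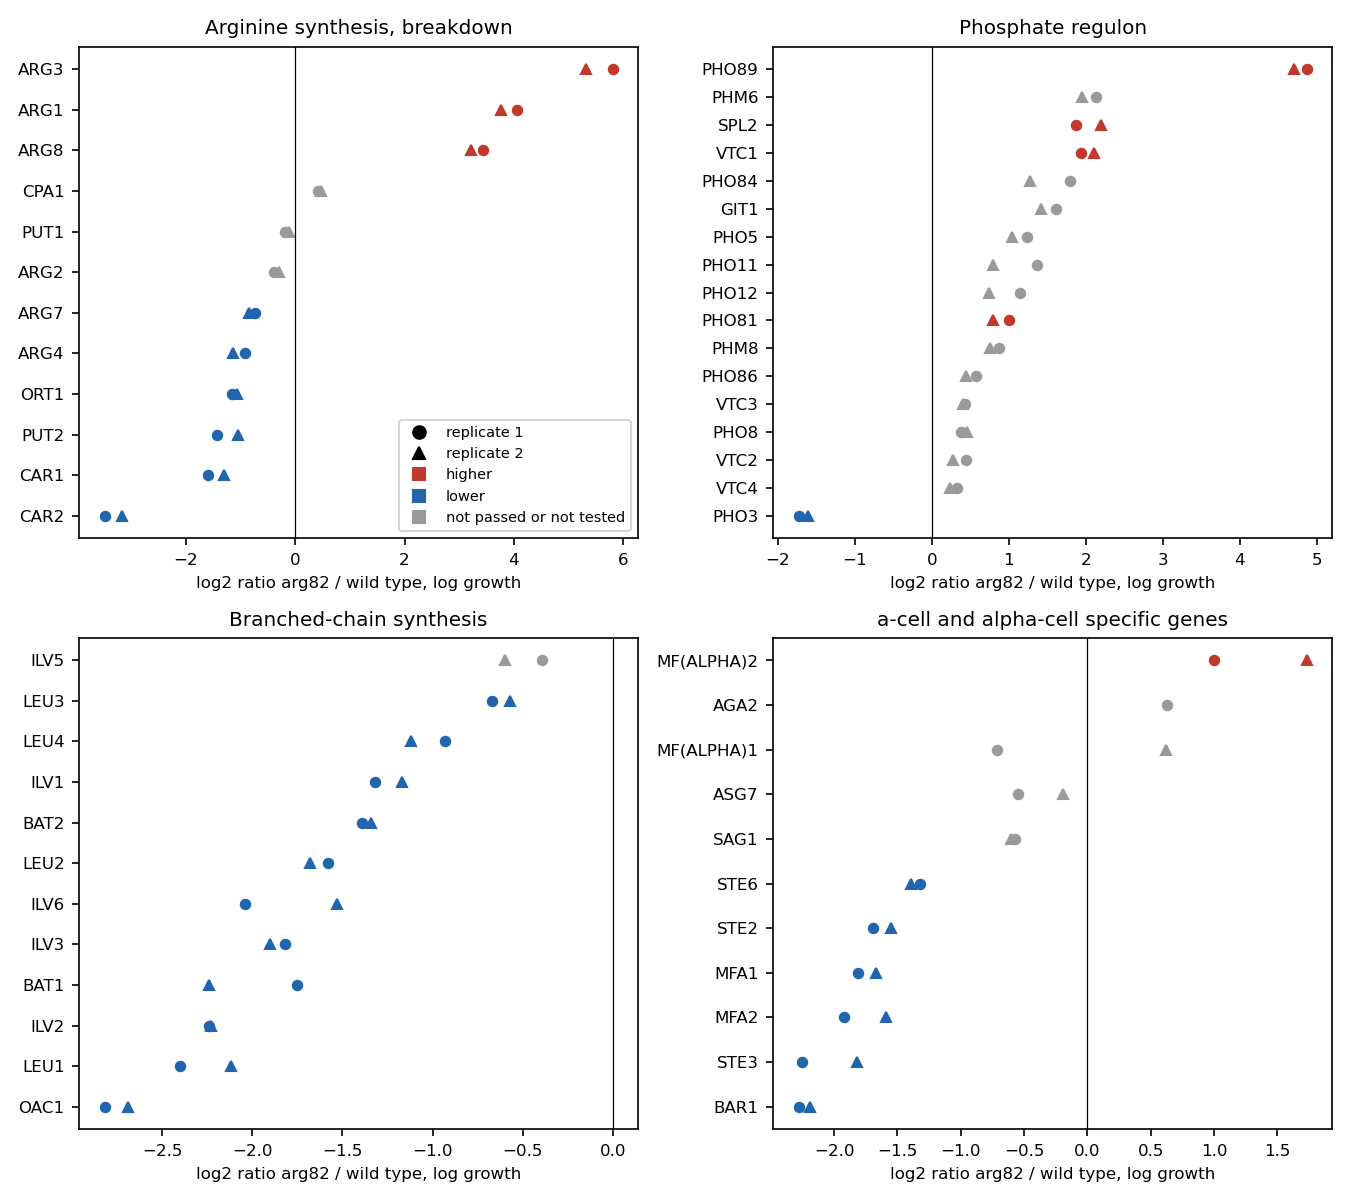
Log2 ratio of arg82 over wild type in log growth (x axis) for the genes of 4 groups (rows), with replicate 1 a circle and replicate 2 a triangle; red and blue mark genes higher and lower at an adjusted p under 0.05, and grey marks the rest. ARG3, ARG1 and ARG8 stand apart to the right, and all 12 branched-chain synthesis genes lie below 0 on both arrays.

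Genes for leucine, isoleucine and valine synthesis were lower as a group. Of 12 members tested 11 were lower and none was higher, with a median of -1.71, beside 9.58% of all genes tested that were lower. OAC1, for a mitochondrial oxaloacetate carrier that also exports isopropylmalate, had -2.82 and -2.69 (limma, adjusted p = 1.87e-07). LEU1, for isopropylmalate isomerase, had -2.40 and -2.12 (limma, adjusted p = 0.000286). ILV2, for the first shared enzyme of isoleucine and valine synthesis, had -2.24 and -2.23 (limma, adjusted p = 3.66e-05). BAT1, for the mitochondrial branched-chain transaminase, had -1.75 and -2.24 (limma, adjusted p = 1.61e-06). OAC1 and ILV2 also passed when the slides were averaged, and LEU1 did not (limma, adjusted p = 0.064). LEU2, of the same pathway, had -1.58 and -1.68; it is also a common strain marker, as is URA3, which had 1.29 and 1.27, and of 6 marker genes tested these were the 2 that passed. How the strain's markers bear on these ratios was not tested.

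Other amino acid pathways were lower in part. Of 23 histidine, lysine and tryptophan synthesis genes tested 10 were lower and 1 was higher, with a median of -0.68. LYS4, for homoaconitase, had -1.28 and -1.53, LYS9 had -1.12 and -1.32, and HIS4, a histidine synthesis gene, had -1.11 and -1.33. The member that was higher was LYS1, with a mean of 0.59. Of 22 sulfur amino acid genes tested 8 were lower and none was higher, with a median of -0.94. These included the S-adenosylmethionine synthetase genes SAM1, at -2.42 and -2.03, and SAM2, at -1.84 and -2.29, which are near-identical, so that their probes may not tell them apart. MET6, for methionine synthase, had -2.35 and -1.78, and MET5, for a sulfite reductase subunit, had -1.93 and -1.96. SAM1, SAM2 and MET6 lost their calls when the slides were averaged (limma, adjusted p = 0.119, 0.101 and 0.0945).

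Genes for cofactors and nucleotides gave smaller counts. Of 10 NAD synthesis genes 6 were lower and 1 was higher: BNA5, for kynureninase, had -1.47 and -1.24, while PNC1, for nicotinamidase, had 1.59 and 1.68. SNZ3 and SNO3, neighbouring genes linked to vitamin B6 synthesis, were lower at -2.94 and -2.14, and at -2.85 and -1.48; SNZ3 has a near-identical copy. Of 11 purine synthesis genes 3 were lower and none was higher: SHM2 had a mean of -1.33, ADE6 of -1.32 and ADE12 of -1.31. Of 8 pyrimidine synthesis genes 3 were higher, URA3, URA1 at a mean of 0.98 and URA4 at 0.86, and 2 were lower, URA6 at -0.98 and URA5 at -0.71. FUR1, for uracil phosphoribosyltransferase of the pyrimidine salvage pathway, had -3.03 and -3.07 (limma, adjusted p = 1.05e-07), and its call held when the slides were averaged.

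Of 6 a-cell specific genes tested 5 were lower and none was higher, beside 9.58% of all genes tested that were lower, with a median of -1.68. BAR1, for the protease that degrades alpha-factor, had -2.28 and -2.19 (limma, adjusted p = 0.00611). The a-factor genes MFA2 and MFA1 had -1.92 and -1.59, and -1.81 and -1.67 (limma, adjusted p = 0.00127 and 0.000987). STE2, for the alpha-factor receptor, had -1.69 and -1.55, and STE6, for the a-factor exporter, had -1.32 and -1.39. ASG7 had -0.55 and -0.19 and did not pass, and AGA2, for an agglutinin subunit, had 1 value of 0.63 and was not tested. Of these genes STE6 passed when the slides were averaged (limma, adjusted p = 0.0274) and the others did not (limma, adjusted p from 0.112 for STE2 to 0.217 for BAR1). In bulk RNA, fewer cells that express a gene and less RNA per cell cannot be told apart.

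Of 4 alpha-cell specific genes, STE3, for the a-factor receptor, was lower at -2.25 and -1.82, and MF(ALPHA)2, for alpha-factor, was higher at 1.00 and 1.73. SAG1 had -0.57 and -0.60, and MF(ALPHA)1 had -0.71 and 0.62, opposite signs on the 2 arrays, and neither passed. Of 20 haploid and pheromone genes 1 was higher and 3 were lower. PRM5, a pheromone-regulated membrane protein gene, had 1.18 and 1.13, while FAR1, for an inhibitor of the G1 cyclin kinase, had -1.74 and -0.85, STE20 -1.06 and -0.89, and the kinase gene FUS3 -0.89 and -0.65.

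Of 12 M/G1 cell cycle genes with Mcm1 sites tested 5 were lower and none was higher, beside 9.58% of all genes that were lower, with a median of -0.49: FAR1, MCM7 at a mean of -1.08, ASH1 at -1.07, the cyclin gene CLN3 at -0.93 and EGT2 at -0.62. Of 16 G2/M genes 1 was lower, the cyclin gene CLB2 at -0.83 and -1.01, and the median was 0.01; the lists were not tested against each other. Of 20 G1/S genes 1 was higher, PCL1 at a mean of 1.06, and 3 were lower, CLN1 at -1.18, POL1 at -1.15 and POL2 at -0.87. None of 8 histone genes passed.

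Genes listed under the phosphate regulon, most of which cells induce when phosphate is scarce, were mostly above 0 but few passed. Of 17 members tested 4 were higher and 1 was lower, beside 7.63% of all genes tested that were higher, with a median of 0.95. PHO89, for a sodium-coupled phosphate transporter, had 4.87 and 4.70 (limma, adjusted p = 0.000355). SPL2, for a negative regulator of low-affinity phosphate uptake, had 1.88 and 2.20 (limma, adjusted p = 0.0275). VTC1, for a subunit of the vacuolar polyphosphate synthesis complex, had 1.94 and 2.11 (limma, adjusted p = 0.0104). PHO81, for the inhibitor of the Pho85 kinase, averaged 0.90. PHM6 had 2.14 and 1.95 and did not pass (limma, adjusted p = 0.192); its SE in the shared fit was 1.1, against 0.868 for PHO89. PHO3, a phosphatase gene, was lower at a mean of -1.67. PHO89 no longer passed when the slides were averaged (limma, adjusted p = 0.0707).

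Of 20 inositol and phospholipid synthesis genes 1 was higher and 5 were lower, with a median of -0.45. INO1, for inositol-3-phosphate synthase, was the higher member at 1.00 and 0.77. The lower members were ACC1, for acetyl-CoA carboxylase, at -1.38 and -1.31, PIS1, for phosphatidylinositol synthase, at -1.21 and -1.10, the activator gene INO2 at -1.17 and -0.98, FAS2 at a mean of -0.96 and PSD1 at -0.83. None of 21 ergosterol synthesis genes passed.

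**Figure D3:**
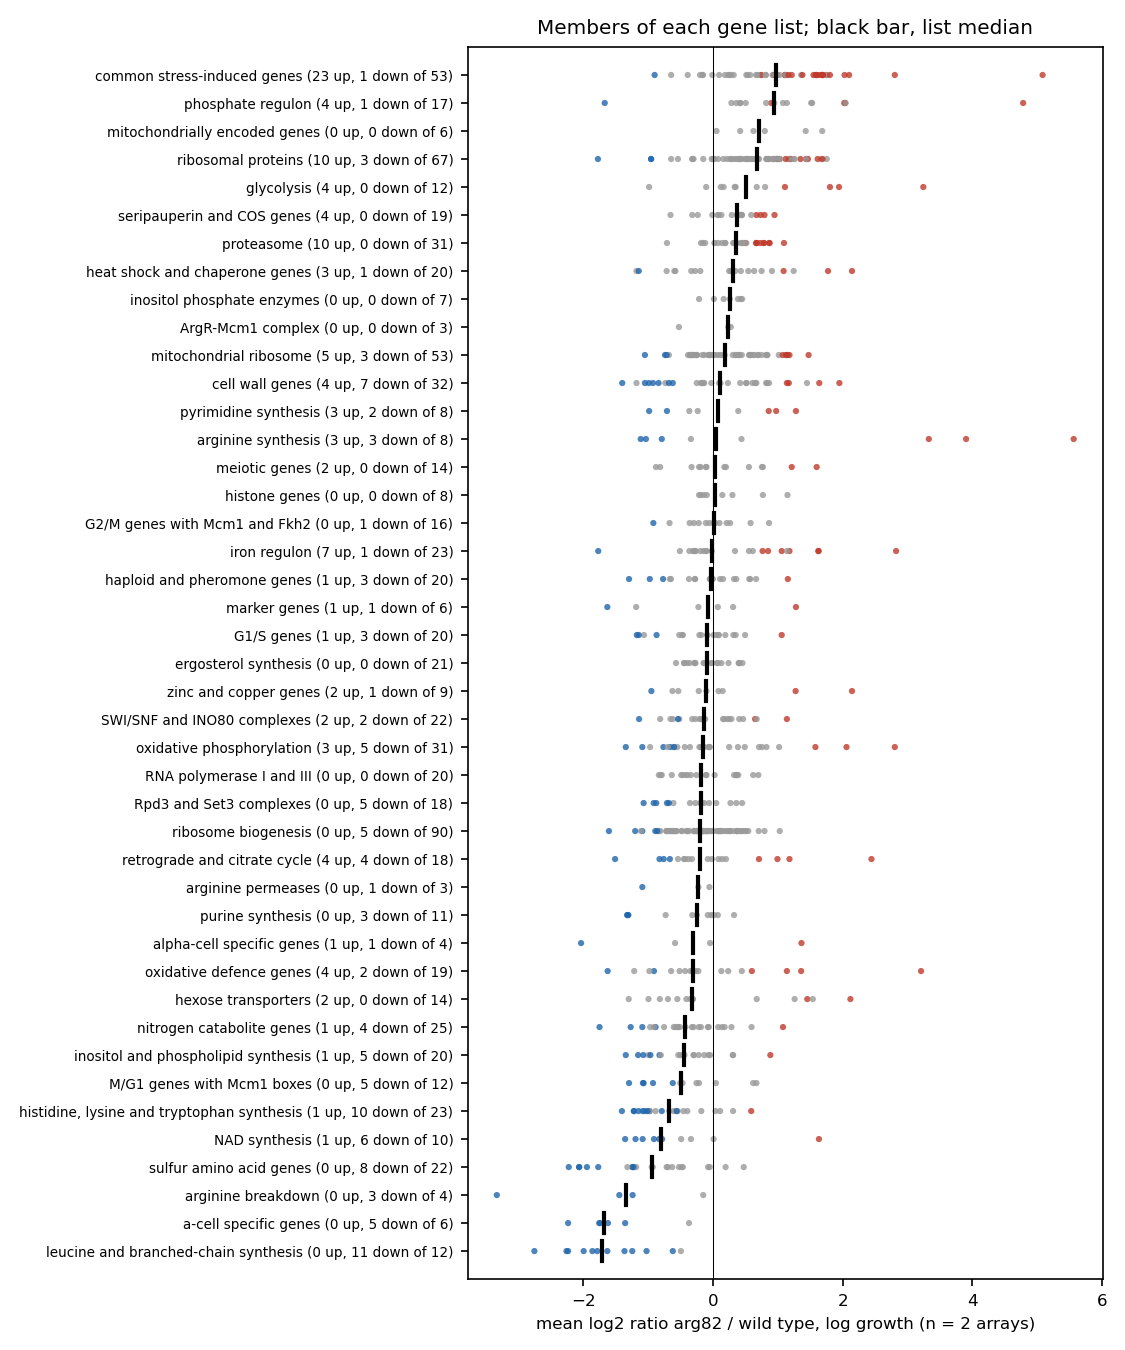
Mean log2 ratio of arg82 over wild type in log growth (x axis, n = 2 arrays) for the tested members of 43 gene lists (rows), ordered by the list median (black bar); red and blue points are higher and lower at an adjusted p under 0.05, grey points did not pass. Branched-chain synthesis and a-cell specific genes have the lowest medians, -1.71 and -1.68, and common stress-induced genes the highest, 0.97.

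Of 53 common stress-induced genes tested 23 were higher, 1 was lower and 29 did not pass, beside 7.63% of all genes tested that were higher and 9.58% that were lower. Their median was 0.97. HSP12, for a small membrane-associated stress protein, had 5.30 and 4.87 (limma, adjusted p = 0.000136). CYC7, for the second isoform of cytochrome c, had 2.94 and 2.67, MSC1 had 2.02 and 2.18, and the glutaredoxin gene GRX1 had 2.11 and 1.95. TKL2, for a transketolase, was lower at -0.98 and -0.82. HSP12 passed when the slides were averaged (limma, adjusted p = 0.0392), and CYC7 and MSC1 did not (limma, adjusted p = 0.097 and 0.0823).

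Other stress lists moved in fewer members. Of 20 heat shock and chaperone genes 3 were higher and 1 was lower, among them CUP1-1, for metallothionein, at 2.41 and 1.88, which has an identical copy and lost its call when the slides were averaged (limma, adjusted p = 0.307), and the membrane chaperone gene HSP30 at 1.68 and 1.87. Of 19 oxidative defence genes 4 were higher and 2 were lower: OYE3, for an NADPH oxidoreductase, had 3.59 and 2.83, TRX2, for thioredoxin, averaged 1.36, and ZWF1, for glucose-6-phosphate dehydrogenase, had -1.65 and -1.60. Of 31 proteasome genes 10 were higher and none was lower, with a median of 0.36; PRE9 and PRE6, of the core particle, averaged 1.10 and 0.88.

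Of 12 glycolysis genes tested 4 were higher and none was lower, with a median of 0.51. TDH1, for a glyceraldehyde-3-phosphate dehydrogenase, had 3.39 and 3.10 (limma, adjusted p = 0.000625). PDC5, for a pyruvate decarboxylase, had 2.05 and 1.84, and the kinase genes HXK1 and GLK1 averaged 1.81 and 1.11. GPM2, a homologue of phosphoglycerate mutase, had 2.65 and 2.32. Of 14 hexose transporter genes 2 were higher, HXT7 at 2.26 and 1.98, whose probe may also detect the near-identical HXT6, and HXT5 at 1.65 and 1.26. TDH1, GPM2 and HXT7 no longer passed when the slides were averaged (limma, adjusted p = 0.0935, 0.0644 and 0.146).

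Of 18 retrograde and citrate cycle genes 4 were higher and 4 were lower: MDH2, for cytosolic malate dehydrogenase, had 2.57 and 2.32 (limma, adjusted p = 6.39e-06), the peroxisomal citrate synthase gene CIT2 had 1.22 and 1.14, and IDP2 had 1.04 and 0.95, while KGD1, for a subunit of ketoglutarate dehydrogenase, had -1.65 and -1.37. Of 31 oxidative phosphorylation genes 3 were higher and 5 were lower, beside 7.63% and 9.58% of all genes, and such small counts were not read as a result. The higher members were CYC7, COX5B, at 2.20 and 1.92, and COX7, at 1.52 and 1.64; CYC7 and COX5B encode the isoforms used at low oxygen. COR1, of complex III, had -1.46 and -1.23. None of 6 mitochondrially encoded genes passed (median 0.71), and of 53 mitochondrial ribosome genes 5 were higher and 3 lower.

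Of 23 iron regulon genes 7 were higher and 1 was lower, with a median of -0.02. FIT2, for a cell wall mannoprotein of siderophore uptake, had 2.81 and 2.84 (limma, adjusted p = 4.95e-05), and its call held when the slides were averaged. SIT1, for a siderophore transporter, had 1.64 and 1.62, and ATX1, for a copper chaperone, had 1.81 and 1.44. ISU2, for a scaffold of iron-sulfur cluster assembly, was lower at -1.93 and -1.61. Of 9 zinc and copper genes CUP1-1 and the zinc transporter gene ZRT1, at 1.36 and 1.19, were higher, and ZRT2 was lower at -0.97 and -0.93.

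Of 32 cell wall genes 4 were higher and 7 were lower. GSC2, for a glucan synthase subunit, had 1.91 and 1.99, BGL2, for an endoglucanase, had 2.12 and 1.16, and SCW4, for a related wall protein, had -1.03 and -1.77. MSB2, for a mucin-type sensor of osmotic and filamentous growth signalling, had -2.30 and -2.21, and PHD1, for a transcription factor of pseudohyphal growth, had -2.49 and -1.91. MRH1, for a plasma membrane protein, had -2.66 and -2.63, and ATF2, for alcohol acetyltransferase, had -2.49 and -2.15. YTP1 was higher at 2.19 and 2.05. PHD1 and YTP1 lost their calls when the slides were averaged (limma, adjusted p = 0.0906 and 0.081). Of 19 seripauperin and COS genes, subtelomeric families with similar members, 4 were higher, with COS6 at a mean of 0.95.

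Of 90 ribosome biogenesis genes 5 were lower and none was higher, with a median of -0.20, including the nucleolar genes NOP1 at -1.64 and -1.57, UTP20 at -1.21 and -1.19 and RRP5 at -0.94 and -1.24. None of 20 genes of RNA polymerase I and III passed. Of 67 ribosomal protein genes tested 10 were higher and 3 lower, beside 7.63% and 9.58% of all genes, with a median of 0.68; RPS30B had 1.71 and 1.67 and RPL7B had -1.69 and -1.86. Only 71 of the 136 ribosomal protein genes had a value on replicate 1, against 127 on replicate 2, so the tested members are part of the family, and paralogs may share probes.

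Of 18 genes of the Rpd3 and Set3 histone deacetylase complexes 5 were lower and none was higher: ASH1 at a mean of -1.07, SDS3 at -0.92, RCO1 at -0.88, UME1 at -0.71 and EAF3 at -0.68. Of 22 genes of the SWI/SNF and INO80 remodelling complexes 2 were higher, IES2 at 1.14 and SNF12 at 0.65, and 2 were lower, SNF2 at -1.14 and ARP8 at -0.54. Of 14 meiotic genes REC102, at a mean of 1.60, and REC104, at 1.22, both of meiotic recombination, were higher.

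The same mutant was next compared in KCl, to see which of its departures from wild type depend on osmotic stress. Each ratio is against wild type in the same condition, so a difference between KCl and log growth is the amount by which the mutant's change in KCl differs from that of wild type. ARG3, ARG1, ARG8 and PHO89 had ratios above 3 on every array of both conditions. In KCl relative to log growth 38 of 90 ribosome biogenesis genes were higher, and 7 of 53 stress-induced genes were lower. The difference passed for 196 of 5130 genes or probes (3.82%), with 129 higher in KCl (2.51%) and 67 lower (1.31%). Log growth replicates 1 and 2 share their slides with KCl replicates 1 and 2. The count was 27 or 29 without log growth replicate 1 or 2, and 118, 119 or 128 without KCl replicate 1, 2 or 3.

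ARG3 had 4.85, 4.56 and 5.46 on the KCl arrays and ARG1 had 4.35, 3.98 and 4.31, and neither difference from log growth passed (limma, adjusted p = 0.739 and 0.92). ARG8 had 4.59, 4.29 and 4.77, higher than in log growth by 1.22 ± 0.35 (SE; limma, adjusted p = 0.04). CPA1 changed most among genes with a symbol that passed as higher: it had 0.41 and 0.47 in log growth and 4.29, 4.22 and 3.69 in KCl, a difference of 3.63 ± 0.44 (SE; limma, adjusted p = 4.78e-06). CAR2 had -2.06, -2.14 and -2.52 in KCl and CAR1 had -2.13, -2.17 and -2.01, and neither difference passed. Of the ArgR-Mcm1 genes ARG81 was lower in KCl than in log growth, by a log2 difference of -0.64.

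The phosphate transporter gene PHO84 had 1.79 and 1.27 in log growth and 5.44, 5.01 and 4.19 in KCl, a difference of 3.35 ± 0.75 (SE; limma, adjusted p = 0.00756). PHO89 had 6.39, 5.84 and 6.39 in KCl, a difference of 1.42 that did not pass. PHO84 and PHO3 were the members of the 17 phosphate genes that differed, both higher in KCl. HSP30 went from a mean of 1.78 in log growth to 5.10, 4.89 and 5.88 in KCl (limma, adjusted p = 0.004).

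Ribosome biogenesis genes had a median ratio difference of 1.34 between KCl and log growth, against -0.04 over all genes tested, and 38 of 90 were higher in KCl and none was lower, beside the 2.51% of all genes. HCA4, for a helicase of ribosomal RNA processing, had -0.18 and -0.32 in log growth and 2.35, 2.32 and 3.95 in KCl. Of 20 genes of RNA polymerase I and III 5 were higher in KCl, all of polymerase I: RPA43, RPA190, RPA135, RPA49 and RPA34. RPA43 had -0.79 and -0.79 in log growth and 2.32, 2.20 and 2.13 in KCl (limma, adjusted p = 0.000584).

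HSP12 had 1.47 and 0.56 on the 2 KCl arrays with a value, lower than in log growth by a log2 difference of -4.07 ± 1.17 (SE; limma, adjusted p = 0.046). TDH1 had 0.66, 0.61 and -0.48 in KCl, a difference of -2.98 (limma, adjusted p = 0.031). SIT1 crossed 0, from 1.64 and 1.62 in log growth to -0.86, -0.76 and -1.20 in KCl, and TIS11, for an mRNA-degrading regulator of iron use, went from 1.22 and 1.06 to -1.03, -1.10 and -1.25. CIT2 went from 1.22 and 1.14 to -0.75, -0.89 and -1.04. Of 53 stress-induced genes 7 were lower in KCl relative to log growth and 1 was higher. When the slides were averaged 2 genes or probes of the whole table passed, and of the 10 genes named by rank CPA1 passed (limma, adjusted p = 0.0116) and the other 9 did not.

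**Figure D4:**
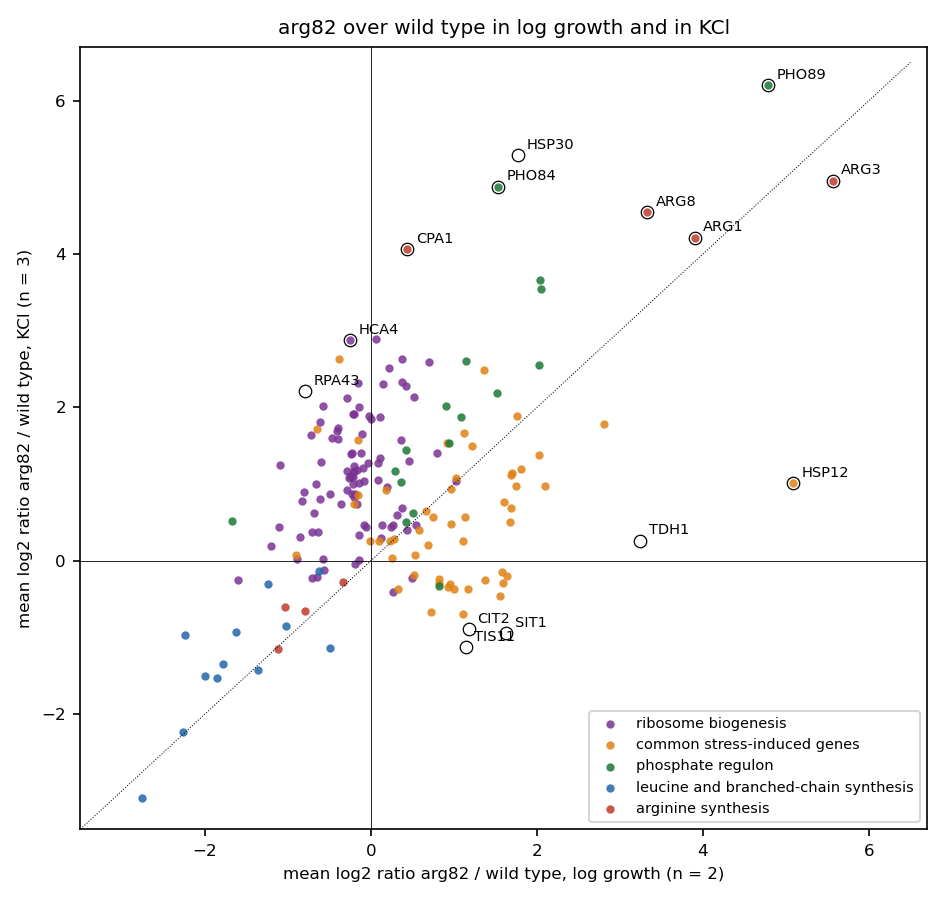
Mean log2 ratio of arg82 over wild type in log growth (x axis, n = 2 arrays) and in KCl (y axis, n = 3 arrays) for the members of 5 gene lists, with circled genes named and the dotted line marking equal ratios. CPA1 lies at 0.44 and 4.07, HSP12 at 5.09 and 1.01, and most ribosome biogenesis genes lie above 0 in KCl.

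The arg82 mutant was then set against mutants of the later enzymes of the pathway, each over wild type in log growth, which asks how far losing Arg82 differs from losing Ipk1, Vip1, or Kcs1 and Vip1. These ratios may share wild type RNA, so each is given side by side and the difference is tested as a contrast of the same limma fit. ARG3, ARG1 and ARG8 were higher in arg82 than in each of the other 3 mutants, and CAR2 was lower than in each. The call of ARG1 against ipk1 was lost when the slides were averaged. That alternative also covered ARG8 and CAR2 against vip1, but their values in it were not read.

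Against the kcs1/vip1 mutant, 179 of 5106 genes or probes differed (3.51%), 77 higher in arg82 (1.51%) and 102 lower (2%). Without arg82 replicate 1 or 2 the count was 45 or 41. ARG3 had -3.92, -3.59 and -5.10 in kcs1/vip1, a difference of 9.77 ± 0.56 (SE; limma, adjusted p = 4.18e-14). ARG1 had -3.84, -3.25 and -5.22 there (difference 8.01), and ARG8 had -2.28, -1.06 and -2.32 (difference 5.22). The groups lay on opposite sides of wild type for all 3 genes. ARG4 and CPA1 were higher in arg82 too, so that 5 of 8 arginine synthesis genes passed and none was lower. CAR2 had 1.08, 2.97 and 2.01 in kcs1/vip1, a difference of -5.36 (limma, adjusted p = 1.24e-08), and CAR1 had 0.51, 1.67 and 1.34.

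KCS1 was at -7.08 and -7.16 on the kcs1/vip1 arrays with a value and at 0.47 and 0.30 in arg82. PHO89 was close to wild type in kcs1/vip1, at -1.03, 0.08 and -0.60 (difference 5.30; limma, adjusted p = 0.00446), a call lost when the slides were averaged (limma, adjusted p = 0.142). In the fit of all arrays 5 of 17 phosphate genes were higher in arg82 with none lower. The 5 were PHO89, GIT1, PHO12, PHO11 and PHM8; PHO11 and PHO12 are near-identical. Of 12 branched-chain genes 4 were higher in arg82, LEU1, OAC1, LEU2 and BAT1: LEU1 had -6.0, -5.81 and -4.78 in kcs1/vip1, farther below wild type than in arg82. Lower in arg82 were YRO2, a membrane protein gene, which averaged -1.93 in arg82 and 3.00 in kcs1/vip1, PDH1, of propionate use, at -0.02 and 4.04, and MRH1 and TKL2 (differences -3.49 and -3.36). FIT2 lay above wild type in both mutants, at 6.14, 4.96 and 5.77 in kcs1/vip1. With FIT3, TIS11, ARN1 and SMF3 it made up the 5 of 22 iron regulon genes that were lower in arg82 than in kcs1/vip1. The 6 a-cell specific genes tested had a median difference of 0.67 from kcs1/vip1, with 1 higher in arg82 and none lower. The 53 stress-induced genes tested had a median difference of -0.19, with none higher in arg82 and 6 lower. These counts stand beside 1.51% of all genes tested that were higher and 2% that were lower. HSP12 had 7.06, 5.71 and 5.56 in kcs1/vip1, and FUR1 -2.80, -2.43 and -3.0, and neither difference passed.

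Against the ipk1 mutant, 283 of 5031 genes or probes differed (5.63%), 123 higher in arg82 (2.44%) and 160 lower (3.18%). The 2 ipk1 arrays disagreed with each other, with HSP12 at -0.45 and 5.99 and PHO89 at -1.0 and 4.55. Without ipk1 replicate 1 the counts were 240 higher and 380 lower, and without replicate 2 they were 70 and 44. Without arg82 replicate 1 or 2, 30 or 43 genes differed in all. IPK1 had no value on these arrays. ARG3 had 0.51 and -1.67 in ipk1, ARG1 had 1.49 and -0.21, and ARG8 had -0.02 and -0.19, giving differences of 6.15, 3.27 and 3.44 (limma, adjusted p = 5.9e-08, 0.00619 and 4.35e-07). When the slides were averaged the differences of ARG1, HXT7 and MFA2 from ipk1 no longer passed (limma, adjusted p = 0.146, 0.0613 and 0.0631). ORT1 was the arginine synthesis gene that was lower in arg82, with a difference of -1.51. CAR2 had 2.31 and 2.90 in ipk1 and CAR1 had 1.60 and 1.74, above wild type where arg82 was below it.

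MFA1 had 0.93 and 1.46 in ipk1 and MFA2 had 0.40 and 1.55 (differences -2.94 and -2.73; limma, adjusted p = 0.000541 and 0.00173), and with STE6 these were the 3 of 6 a-cell specific genes that were lower in arg82. FUR1 had 0.18 and 0.11 in ipk1, a difference of -3.20 (limma, adjusted p = 4.47e-05). MEP2, for an ammonium permease, had -3.49 and -4.20 in ipk1 and -0.30 and -0.14 in arg82, and HXT7 had -2.03 and -0.84 in ipk1. LEU1 had -4.23 and -6.05 in ipk1, and 4 of 12 branched-chain genes were higher in arg82, LEU2, LEU1, OAC1 and BAT1. None of 17 phosphate genes passed between arg82 and ipk1, whose 2 arrays were far apart for PHO89, and the median difference was 0.16. The 50 stress-induced genes tested had 7 higher in arg82 and none lower, beside 2.44% and 3.18% of all genes tested.

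Against the vip1 mutant, whose log growth arrays lie on the same slides A and B, 635 of 5039 genes or probes differed (12.6%), 294 higher in arg82 (5.83%) and 341 lower (6.77%). The count was 91 or 169 without arg82 replicate 1 or 2, and 132 or 222 without vip1 replicate 1 or 2. PHO89 had -4.74 and -3.16 in vip1, a difference of 8.74 ± 1.23 (SE; limma, adjusted p = 3.21e-05), which was 9.61 within slide A and 7.86 within slide B. When the slides were averaged, the differences of PHM6, GIT1, LEU1, VAR1 and MFA2 from vip1 no longer passed (limma, adjusted p = 0.264, 0.142, 0.135, 0.254 and 0.0818), and those of the other 5 genes named by rank did. PHM6 had -4.98 and -4.24 in vip1, a difference of 6.66, and GIT1, for a glycerophosphoinositol permease, had -4.47 and -3.52, against 1.61 and 1.42 in arg82. Of 17 phosphate genes 12 were higher in arg82 and 1, PHO3, was lower, with a median difference of 3.04. ARG3 had -2.18 and -1.83 in vip1 and ARG1 had -2.76 and -2.23, with differences of 7.99 and 7.15, and of 6.81 and 5.99, within the 2 slides. CAR2 had -1.69 and -1.62 in vip1, a difference of -1.68 (limma, adjusted p = 0.0495). ARG80, at -0.71 and -0.34 in arg82, did not pass against wild type there, and was higher than in vip1 by a difference of 1.65.

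MFA2 had 1.25 and 1.47 in vip1, a difference of -3.12 (limma, adjusted p = 0.00022), and 4 of 6 a-cell specific genes were lower in arg82, MFA2, MFA1, STE2 and STE6. LEU1 had 1.31 and 0.53 in vip1 and FUR1 had 0.35 and -0.07, with differences of -3.18 and -3.19. The ribosomal protein gene RPL21A had 4.56 and 4.30 in vip1 and -0.54 and -0.09 in arg82, and 13 of 57 ribosomal protein genes tested were lower in arg82 with none higher. VAR1, a mitochondrially encoded ribosomal protein gene, had 4.21 and 3.28 in vip1. Of 52 stress-induced genes 15 were higher in arg82 and none was lower; HSP12 had 1.13 and 0.88 in vip1.

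**Figure D5:**
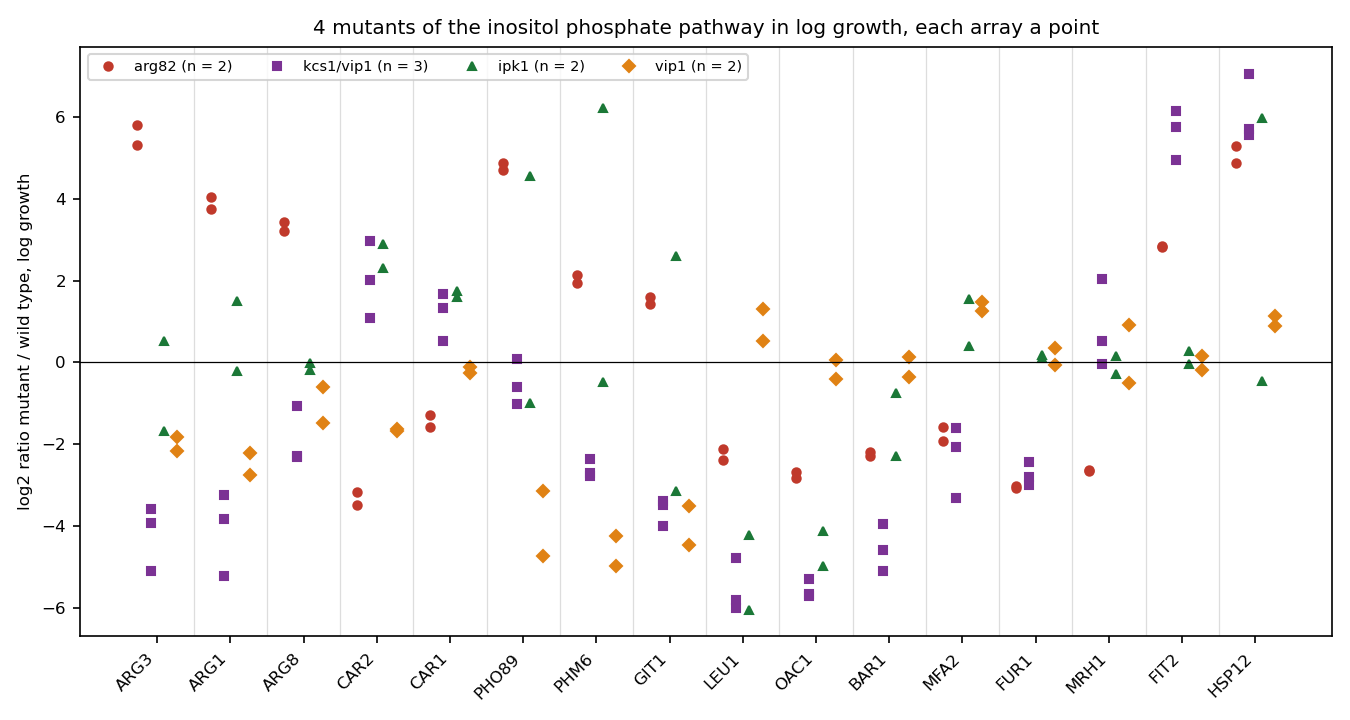
Log2 ratio of mutant over wild type in log growth (y axis) for 16 genes (x axis), each array a point, in arg82, kcs1/vip1, ipk1 and vip1. ARG3, ARG1 and ARG8 lie above 3 in arg82 and below 2 on every array of the other mutants, and the ipk1 points are far apart for PHO89, PHM6, GIT1 and HSP12.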

How the data were processed

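The 55 two-colour Agilent arrays were used through the deposited table of log2 ratios, 1 column per array. The base, normalization and centring applied by the authors are not given in the sources used here, and values were read as log2 because they are signed and centre near 0. Of 6317 entries 61 control spots were left out. Of 6256 probes 4075 carried 1 gene symbol and 2181 none, and probes of 7 symbols with several probes were averaged, giving 6249 genes or probes. Exact zeros in 3 columns (407 values) were set to missing. Symbols were updated from the RefSeq annotation, which was used for names and neighbours only; sequences and coordinates were not used here.

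Arrays were grouped by their labels into 27 groups (54 arrays), and 1 array whose labels conflict was not assigned. The log2 ratios were modelled with 1 mean per group in limma (version 3.58.1, R 4.3.3). Empirical Bayes moderation was applied (prior degrees of freedom 4.634, prior SD 0.3692). The fit was also run on simulated data with independent noise on each array, which cannot show how shared slides affect the calls. Genes with at least 2 values per group were tested against 0 or as contrasts, with Benjamini-Hochberg adjustment within a comparison and a threshold of 0.05. Tables and figures used python 3.11.15, pandas 2.3.3, numpy 2.4.6 and matplotlib 3.10.9.

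The genes and the 43 gene lists were chosen with earlier results of these data known. Genes named are ARG82 and other inositol phosphate enzymes, the 15 highest and 15 lowest symbols that passed with both arrays in the same direction, all members of the ArgR-Mcm1, arginine synthesis, arginine breakdown and a-cell lists, up to 4 members of largest mean in each other list, and the 5 highest and 5 lowest of each contrast. Others were named after their values were seen, where a count of 5 or fewer needed them or to set a gene beside its values in another group. Alternatives were array medians subtracted, arrays scaled to the same spread, genes on every array only, slide as a random or fixed block, robust or no moderation, only the groups compared, no dye-swapped arrays, no doubted arrays (those of kcs1 in log growth, of which replicate 2 goes against its label, and of kcs1/vip1 in H2O2 and 1 in heat), zeros kept and each array left out.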

Additional observations from a re-analysis of the deposited data

Results flagged for a closer look

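The effect of the arg82 mutation differed between log growth and KCl for 196 genes or probes by limma's contrast of the same fit. Among genes with a symbol, the difference (KCl minus log growth, log2) was 3.63 for CPA1, 3.52 for HSP30, 3.35 for PHO84, 3.12 for HCA4 and 3.01 for RPA43. It was -4.07 for HSP12, -2.98 for TDH1, -2.57 for SIT1, -2.27 for TIS11 and -2.07 for CIT2. Within slides A and B the differences were 3.88 and 3.75 for CPA1 and 3.65 and 3.74 for PHO84.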

How the results depend on the processing

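The alternatives were read gene by gene for 53 genes in arg82 log growth and 10 in each contrast. No gene that passed in the main fit or in the alternative changed direction between them. For the other genes named, the alternatives were not read gene by gene. Of the 893 genes called in arg82 log growth, the count was 2895 with only that group in the fit, 442 with at least a 2-fold change asked for besides, 53 with slides A and B averaged, and 59 to 153 with 1 array left out (59 without replicate 1, 153 without replicate 2). For KCl minus log growth (196) it was 360 with slide as a random block, 593 with only the groups compared, 2 with slides averaged and 27 to 128 with 1 array left out. For arg82 minus kcs1/vip1 (179) it was 106 with arrays scaled, 63 with slide as a fixed block, 67 with only the groups compared, 36 with slides averaged and 41 to 186 with 1 array left out. For arg82 minus ipk1 (283) it was 87 with slide as a fixed block, 20 with slides averaged, 30 to 620 with 1 array left out, and 0 in limma with only the groups compared, where 669 genes had an unadjusted p under 0.05. For arg82 minus vip1 (635) it was 962 with arrays scaled, 1184 and 1193 with slide as a random and fixed block, 2239 with only the groups compared, 14 with slides averaged and 91 to 222 with 1 array left out. Averaging and leaving out arrays leave fewer samples; the cause of the other shifts was not tested. Beyond averaging and leaving out an array, HSP12 in KCl minus log growth lost its call with slide as a fixed block, without moderation and without the doubted arrays. TIS11 in that contrast lost its call with medians subtracted and without moderation. ARG1 against ipk1 and PHO89 against kcs1/vip1 lost theirs with slide as a fixed block. All 10 genes of the ipk1 contrast lost their calls with only the groups compared, where no gene passed. Slide as a fixed block could not be fitted for arg82 log growth against 0. No paired analysis was possible because, for pairing by replicate number, the labels carry no such numbers. Arrays that share a slide were instead paired through slide as a fixed block, which gave the 1193 above for arg82 minus vip1 and 290 for KCl minus log growth.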

Other observations

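Genes with a value on 1 arg82 array in log growth could not be tested, and several carried large ratios; those given here were chosen after their values were seen. HOR7, a stress-responsive gene, had 4.66 on replicate 2. The translation elongation factor genes TEF2 and TEF1, near-identical copies, had 2.90 and 2.52, and the glycolysis genes TDH3 and ENO2 had 2.47 and 2.13, all on replicate 2. Of 22 glycolysis genes 13 had a value on replicate 1 and 19 on replicate 2. On replicate 1 the kinase gene CMK2 had 3.02, YGP1, for a secreted glycoprotein, had -2.80, and SST2, for the regulator that desensitizes pheromone signalling, had -1.82.

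Genes annotated beside ARG82 were also read. HSP42, for a small heat shock protein, had 1.78 and 1.41 in log growth (limma, adjusted p = 0.00326) and -0.26, -0.34 and -0.27 in KCl. It is also among the common stress-induced genes, of which 23 of 53 tested were higher in log growth. UBC1, for a ubiquitin-conjugating enzyme, had 1.04 and 0.81 (limma, adjusted p = 0.0471). SUP35, HMO1, RSM24 and NGG1 had means of -0.09, -0.14, -0.33 and 0.00 and did not pass.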
